A study of Mus musculus with 6 samples.

Results

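Schlafen genes form a family that in mice lies in 1 cluster on chromosome 11. The 6 genes described here, Slfn1, Slfn2, Slfn3, Slfn5, Slfn8 and Slfn9, were taken by symbol from the deposited gene counts. All 6 had a row among the 11922 genes listed, and all 6 passed the low-count filter. The pseudogene Slfn10-ps, which sits in the same cluster, also had a row and is given beside them. Slfn4, Slfn14 and the Schlafen-like gene Slfnl1 had no row and were not analysed here.

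Splenic CD8+ T cells of 3 C57BL6/J mice were purified with magnetic beads, activated with anti-CD3/anti-CD28 beads and kept for 7 days in recombinant human interleukin-2 at 100 units per ml. The vehicle group received water and the AOA group received 0.25 mM aminoxyacetic acid (AOA), an inhibitor of enzymes that need the vitamin B6 cofactor pyridoxal 5'-phosphate (PLP). Each mouse gave 1 culture to each group, which made 6 libraries, 3 a group, and a replicate number names the mouse. Every culture was activated in the same way, and no unactivated cells are among the samples. The age and sex of the donors are not in the labels.

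Schlafen proteins share an amino-terminal core that acts on RNA. The short members, Slfn1 and Slfn2, consist of little more than this core, Slfn3 is of intermediate length, and the long members, Slfn5, Slfn8 and Slfn9, also carry a helicase-like carboxy-terminal part. Many Schlafen genes are induced by type I interferon. In T cells the best known member is Slfn2: mice that lack its function lose T cell quiescence, and its protein binds tRNAs and shields them from cleavage by the ribonuclease angiogenin after activation. Forced expression of Slfn1 slows thymocyte growth, and long Schlafen proteins related to Slfn8 and Slfn9 can themselves cleave tRNA.

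Total counts ranged from 12881962 to 18934869 in vehicle libraries and from 18696114 to 21997078 in AOA libraries. Levels are given as CPM, counts scaled to the library size after TMM normalisation, for comparison between libraries, and as RPKM, which is CPM per kilobase of the deposited gene length, for comparison between genes. The 7 CD8 T cell markers summed to between 4207 and 5224 CPM with vehicle and between 5133 and 6066 CPM with AOA. Of these markers Cd8a and Cd8b1 rose, Cd2 fell and 4 were not called by edgeR. Of 8 myeloid markers, Csf1r, Adgre1, Spi1 and Csf3r had no row, Lyz2 reached at most 1.16 CPM, and the 4 that were listed summed to between 55.5 and 67.5 CPM with vehicle and between 4.18 and 7.82 CPM with AOA. Of these, Itgam was the most abundant with vehicle, at 40.5 to 52.9 CPM, and is also expressed by effector CD8 T cells. The 4 CD4 T cell markers summed to between 158 and 210 CPM with vehicle and between 33.0 and 54.3 CPM with AOA. The 3 listed of 4 NK cell markers summed to between 24.2 and 138 CPM with vehicle and between 4.34 and 13.4 CPM with AOA, and the 5 listed of 6 B cell markers to between 12.9 and 18.5 CPM with vehicle and between 23.0 and 30.9 CPM with AOA. None of 5 erythroid markers had a row. The highest NK cell sum was that of vehicle replicate 2. The part of these other cell types in the Schlafen results was not tested. Vehicle replicate 2 and AOA replicate 1 stood apart within their groups: the chi-square per gene was 55.1 to 71.1 for pairs with either of them, against at most 10.5 for the other pairs. In bulk RNA, fewer cells that express a gene and less RNA per cell cannot be told apart.

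**Figure D1:**
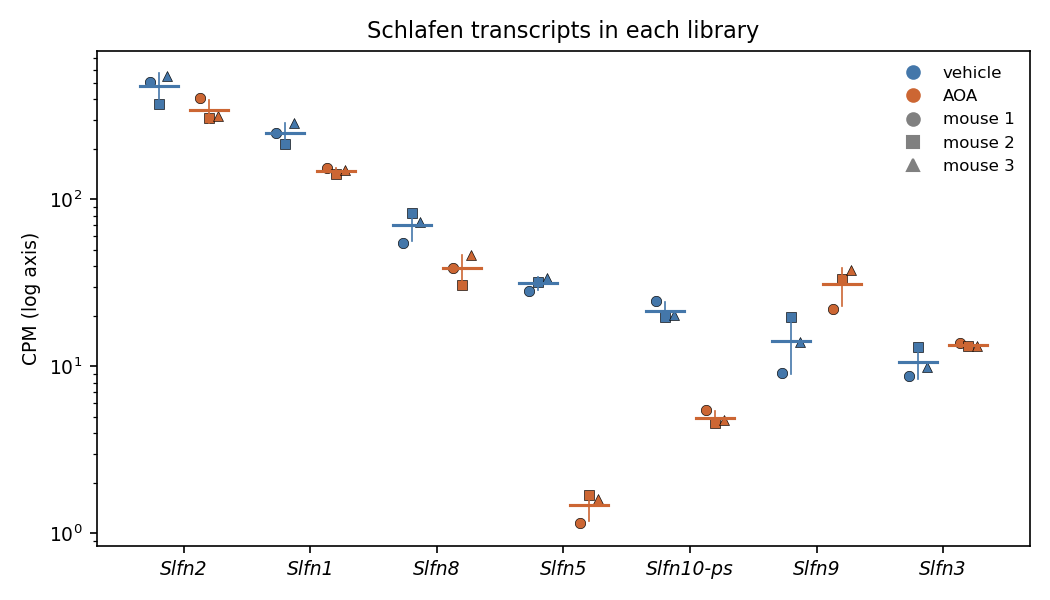
Level of each Schlafen gene in CPM on a log axis in the 3 vehicle (blue) and 3 AOA (orange) libraries, with the mouse given by the symbol, the mean by a horizontal line and the SD by a vertical line. Slfn5 has the widest gap between groups, from 28.4 CPM or more with vehicle to 1.69 CPM or less with AOA, and Slfn9 lies higher with AOA.

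The family arose by duplication, and some of its reads can fit more than one gene. In the GENCODE vM21 models of GRCm38 (the mm10 assembly named in the submitters' processing notes), 6.99% of all 75-base windows of Slfn8 transcripts and 5.90% of those of Slfn9 recur exactly in transcripts of another gene, most often Slfn10-ps. The windows that Slfn8 and Slfn9 share with each other are 3.68% of those of Slfn8 and 2.62% of those of Slfn9. The share was 6.78% for Slfn3, 1.70% for Slfn2 and 11.5% for Slfn10-ps, while Slfn1 shared 0 of 1790 windows. For Slfn5 it was 8.22%, mostly with Slfn5os, an antisense transcript that covers 559 of its exonic bases and has no row in the table. No source used here states whether strand was used in counting, so reads of Slfn5 and Slfn5os in that stretch cannot be told apart.

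With AOA, 3 of the 6 members fell (Slfn1, Slfn5 and Slfn8), 1 rose (Slfn9) and 2 were not called (Slfn2 and Slfn3). A gene was called at an adjusted p under 0.05 in the quasi-likelihood test of edgeR across all 11759 genes tested. Over all genes 53.0% were called, 26.2% higher and 26.8% lower, so 4 calls among 6 members are near the background. The median log2 fold change was -0.62 over the members and -0.02 over all genes tested. The groups did not overlap for 5 of the 6 members, against 62.1% of all genes tested, and all 6 members had a single direction in the 3 mice, as did 72.6% of all genes tested. Without vehicle replicate 2, 4 members were lower and 2 higher, and without AOA replicate 1, 4 were lower and 1 higher. The 4 calls made with all libraries held in both fits, with log2 fold changes of -0.82 and -0.78 for Slfn1, -4.36 and -4.25 for Slfn5, -0.70 and -0.86 for Slfn8, and 1.45 and 1.31 for Slfn9.

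**Figure D2:**
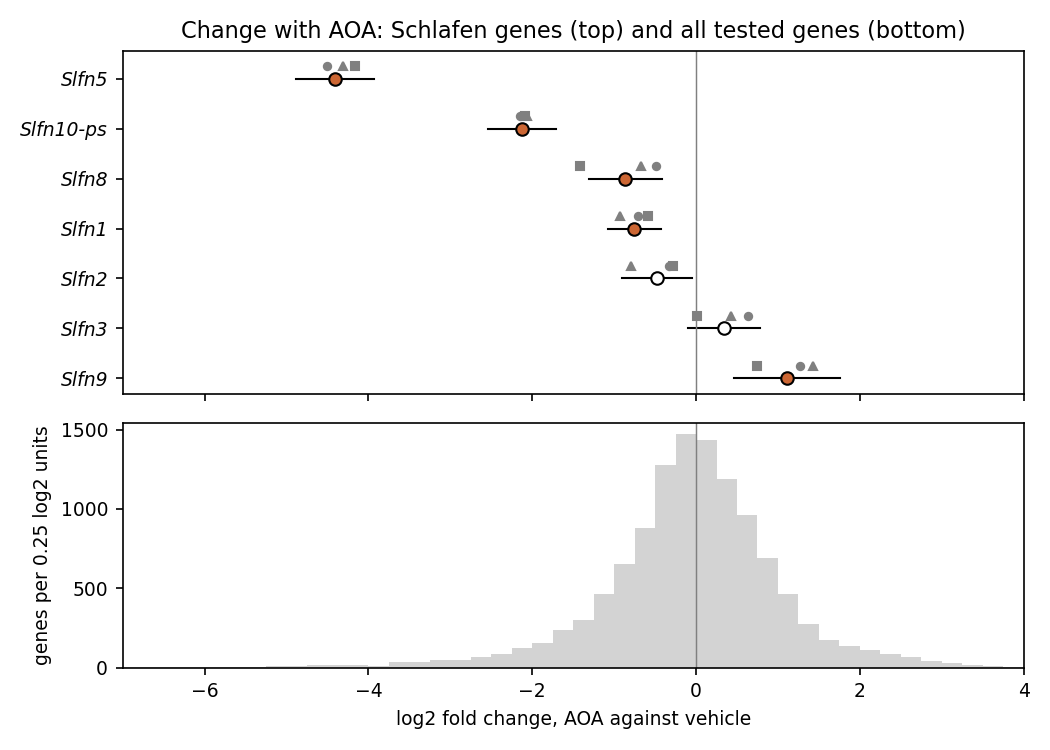
The upper panel plots the log2 fold change of each Schlafen gene, AOA against vehicle, with its 95% interval (line), filled where called and open where not, and the within-mouse difference in log2 CPM as small grey symbols (circle, square and triangle for mice 1, 2 and 3). The lower panel counts all tested genes per bin of the same axis, of which the few beyond the axis limits are not drawn. Slfn5 lies far in the left tail at -4.41.

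Slfn2 was the most abundant member. It measured 507, 372 and 551 CPM in the vehicle libraries of mice 1, 2 and 3, against 404, 306 and 316 CPM in their AOA libraries. It was lower with AOA in each mouse, but AOA replicate 1 lay above vehicle replicate 2, so the groups overlapped. Its log2 fold change was -0.48 (standard error 0.19, 95% interval -0.91 to -0.05, adjusted p = 0.0592 by edgeR), or 1.39-fold lower, and it was not called. In a fit with mouse as a block the value was -0.47 and passed the threshold (adjusted p = 0.0458 by edgeR). Slfn2 was also called without vehicle replicate 2 (-0.59, adjusted p = 0.0130 by edgeR) and without AOA replicate 1 (-0.61, adjusted p = 0.0339 by edgeR).

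Slfn1, the other short member, measured 252, 215 and 286 CPM in the vehicle libraries of mice 1, 2 and 3. In the AOA libraries of the same mice it measured 154, 143 and 150 CPM. The groups did not overlap, and the AOA libraries varied less than the vehicle libraries. Slfn1 fell by 0.75 on the log2 scale (standard error 0.14, adjusted p = 0.00221 by edgeR), or 1.69-fold, with differences of -0.71, -0.59 and -0.93 within mice 1, 2 and 3. The ratio of Slfn2 to Slfn1 in RPKM was 2.11 ± 0.161 (SD, n = 3) with vehicle and 2.56 ± 0.322 (SD, n = 3) with AOA, and every AOA library lay above every vehicle library. An exact permutation test (two-sided) gave p = 0.1, the smallest that 3 libraries against 3 allow. It regrouped the libraries without regard to the mouse, as did the tests of the other ratios.

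Slfn3, of intermediate length, is best known from the differentiation of gut epithelium. It was low in both groups, at 8.81, 13.1 and 9.88 CPM in the vehicle libraries of mice 1, 2 and 3 against 13.8, 13.3 and 13.3 CPM in their AOA libraries. The AOA libraries lay above the vehicle libraries, but vehicle replicate 2 lay just under them. The log2 fold change of 0.34 (standard error 0.19, 95% interval -0.10 to 0.78, adjusted p = 0.168 by edgeR) was not called. Without vehicle replicate 2 it was 0.56 and passed the threshold (adjusted p = 0.0196 by edgeR).

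Slfn5 had the strongest response of the family. This long member is a nuclear protein induced by type I interferon, and its human counterpart represses interferon-driven transcription. Its counts were 358, 506 and 627 in the vehicle libraries of mice 1, 2 and 3, against 25, 32 and 32 in their AOA libraries. In CPM these were 28.4, 32.1 and 34.0 with vehicle and 1.15, 1.69 and 1.61 with AOA. The groups were far apart, and both were tight: the vehicle mean was 31.5 ± 2.85 CPM and the AOA mean 1.48 ± 0.293 CPM (SD, n = 3 each). Slfn5 fell by 4.41 on the log2 scale (standard error 0.21, adjusted p = 1.12e-05 by edgeR), which is 21.2-fold. The within-mouse differences were -4.50, -4.16 and -4.31 log2 units. Of all genes tested, 105 had an absolute log2 fold change at least as large, Slfn5 itself included, and 0.731% had a log2 fold change as low or lower.

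Slfn8 and Slfn9 are neighbouring long members transcribed in the same direction, and they moved in opposite directions. Slfn8 measured 54.8, 82.4 and 73.6 CPM in the vehicle libraries of mice 1, 2 and 3, against 38.8, 30.9 and 46.3 CPM in their AOA libraries. Slfn9 measured 9.13, 19.7 and 14.0 CPM in the vehicle libraries of mice 1, 2 and 3, against 22.2, 33.2 and 37.6 CPM in their AOA libraries. For both genes the groups did not overlap. Slfn8 fell by 0.86 on the log2 scale (standard error 0.20, adjusted p = 0.00538 by edgeR), or 1.82-fold, most in mouse 2 (-1.41, against -0.49 and -0.67 in mice 1 and 3). Slfn9 rose by 1.11 on the log2 scale (standard error 0.29, adjusted p = 0.00964 by edgeR), or 2.17-fold, least in mouse 2 (0.75, against 1.27 and 1.42 in mice 1 and 3).

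The ratio of Slfn9 to Slfn8 within a library depends on no normalisation between libraries. In RPKM it was 0.173, 0.249 and 0.197 in the vehicle libraries of mice 1, 2 and 3, against 0.595, 1.12 and 0.845 in their AOA libraries. It was higher with AOA in each mouse, by 2.01 log2 units on average. The exact permutation test (two-sided) gave p = 0.1, again the smallest possible, and 0.1 after Benjamini-Hochberg adjustment over the 3 ratios compared. Slfn8 and Slfn9 each separated the groups, in opposite directions, so this p was fixed in advance and adds nothing to their calls. The third ratio, Slfn3 to Slfn1, was 0.0445 ± 0.0156 (SD, n = 3) with vehicle and 0.0926 ± 0.00225 (SD, n = 3) with AOA, with the same p from the exact permutation test. Slfn3 and Slfn1 also separated the groups in opposite directions, so that p was fixed in the same way.

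**Figure D3:**
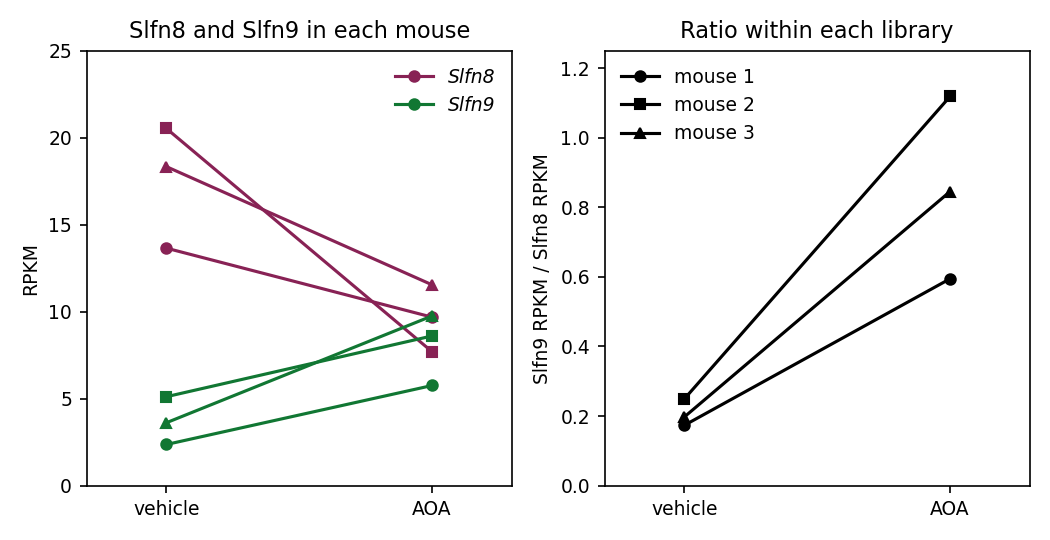
Left, RPKM of Slfn8 and Slfn9 with lines that join the vehicle and AOA cultures of a mouse. Right, the ratio of Slfn9 to Slfn8 in each library, which was at most 0.249 with vehicle and at least 0.595 with AOA.

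Slfn10-ps, a transcribed pseudogene beside Slfn8, measured 24.6, 19.7 and 20.4 CPM in the vehicle libraries of mice 1, 2 and 3, against 5.47, 4.55 and 4.79 CPM in their AOA libraries. The groups were well apart. It fell by 2.12 on the log2 scale (standard error 0.18, adjusted p = 3.87e-05 by edgeR), or 4.36-fold, with differences of -2.15, -2.09 and -2.07 within mice 1, 2 and 3. Of the Schlafen genes measured, it was second to Slfn5 in the size of its change.

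The sequences ahead of Slfn8 and Slfn9 are shown because the genes responded in opposite directions while these stretches are close copies of each other. They are the 250 bases before a RefSeq start on the minus strand in GRCm38.p6, written 5′ to 3′ along each gene. Their positions are chr11:83020811-83021060 for Slfn8 and chr11:82991831-82992080 for Slfn9. Capitals mark the letters of an interferon-stimulated response element (ISRE), searched on both strands as 2 copies of GAAA with any 2 bases between them.
Slfn8: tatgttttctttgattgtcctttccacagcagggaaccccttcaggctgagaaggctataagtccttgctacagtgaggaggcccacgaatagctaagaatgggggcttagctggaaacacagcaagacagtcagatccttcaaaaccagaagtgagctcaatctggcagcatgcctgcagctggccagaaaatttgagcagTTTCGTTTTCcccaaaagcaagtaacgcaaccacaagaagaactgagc
Slfn9: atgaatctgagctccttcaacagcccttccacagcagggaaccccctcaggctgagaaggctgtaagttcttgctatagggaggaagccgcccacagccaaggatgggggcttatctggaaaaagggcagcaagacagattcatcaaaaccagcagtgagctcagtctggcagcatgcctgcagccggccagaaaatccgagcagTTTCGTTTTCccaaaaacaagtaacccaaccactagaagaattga

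In a global alignment the Slfn8 and Slfn9 stretches were identical in 206 of 258 columns (79.8%), whereas the other pairs of Schlafen stretches were identical in 40.7% to 49.1%. The ISRE letters were the same in both, on the strand opposite to the gene, and began 48 bases before this start of Slfn8 and 45 bases before that of Slfn9. RefSeq also has a downstream start for Slfn8, at 83020722, and the same letters begin 136 bases before it. Of the 250-base window of that start, 88 bases are exonic. A match was also found in the RefSeq window of Slfn5, 155 bases before a transcript start at 82952102, and it is shown with 10 bases on each side because Slfn5 was the member that fell most. This stretch is on the plus strand at chr11:82951937-82951966, in no GENCODE exon. It lies inside the gene as annotated, because a short non-coding Slfn5 transcript starts upstream, at 82951349, and 117 bases of the 250-base window are exonic.
Slfn5: ccttcaaagtGAAAAAGAAAaaaaaaaaag

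With that downstream start for Slfn5, 3 of the 6 members held these letters, and Slfn1, Slfn2 and Slfn3 did not. Of all genes tested that had a promoter window, 3.31% held them. The 3 members with the letters include the 1 that rose and 2 of the 3 that fell. No Schlafen stretch held the letters TTCNNNGAA of a gamma-activated site, which 7.17% of tested genes with a window had, or the FOXO letters GTAAACA, which 2.80% had. No window was given for Slfn10-ps. A match of letters is not a measurement of binding.

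Levels between genes were compared per deposited length, which was 1816 bases for Slfn3, 3856 for Slfn9 and 4011 for Slfn8. The GENCODE models hold 3411, 5965 and 4091 exonic bases for these genes. The order of the low members, and the level of Slfn9 beside Slfn8, depend on the length used, and no other length was tried. With vehicle the order in mean RPKM was Slfn2 at 286 ± 56.1, Slfn1 at 135 ± 19.3, Slfn8 at 17.5 ± 3.51, Slfn3 at 5.84 ± 1.24, Slfn10-ps at 5.81 ± 0.719, Slfn5 at 5.26 ± 0.477 and Slfn9 at 3.70 ± 1.37 (SD, n = 3). The ranges of Slfn3, Slfn10-ps and Slfn5 overlapped one another, and that of Slfn9 reached those of Slfn3 and Slfn5 through vehicle replicate 2. With AOA the order was Slfn2 at 206 ± 32.3, Slfn1 at 80.1 ± 3.03, Slfn8 at 9.64 ± 1.92, Slfn9 at 8.04 ± 2.06, Slfn3 at 7.41 ± 0.160, Slfn10-ps at 1.33 ± 0.129 and Slfn5 at 0.248 ± 0.0490 (SD, n = 3). The range of Slfn9 then overlapped those of Slfn8 and Slfn3, which did not overlap each other. By mean Slfn5 moved from the next-to-last place to the last, and it lay below Slfn10-ps in every AOA library.

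The short members supplied nearly all of the family's RNA in both groups. Slfn1 and Slfn2 together made up 92.7% ± 2.46 (SD, n = 3) of the summed RPKM of the 6 members with vehicle and 91.8% ± 1.5 (SD, n = 3) with AOA. This sum was 466, 377 and 518 RPKM in the vehicle libraries of mice 1, 2 and 3, against 349, 285 and 300 RPKM in their AOA libraries, with no overlap between groups. Slfn5 supplied 1.18% ± 0.213 with vehicle and 0.0814% ± 0.0233 with AOA, and Slfn9 supplied 0.854% ± 0.445 and 2.64% ± 0.867 (SD, n = 3). Among all genes tested, the mean RPKM of Slfn2 was at the 98.2nd percentile with vehicle and the 97.3rd with AOA. Slfn5 went from the 32.9th percentile to the 4.07th, and Slfn9 from the 26.1st to the 43.3rd.

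The cluster extends over 335 kb of chromosome 11 in GRCm38.p6, from the start of Slfn5 at 82951349 to the end of Slfn14 at 83286726. Slfn5 (Entrez gene 327978), Slfn2 (20556), Slfn1 (20555) and Slfn3 (20557) lie on the plus strand, and Slfn9 (237886), Slfn8 (276950) and Slfn10-ps (237887) on the minus strand between Slfn5 and Slfn2. In the GENCODE models Slfn5 has 8 exonic blocks, Slfn8 and Slfn9 have 6 each, and Slfn1 and Slfn2 have 2 each. The called genes of both directions were interleaved, with Slfn9 between Slfn5 and Slfn8.

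The neighbours within 500 kb of the cluster were followed because position had no part in choosing the members. Of 57 RefSeq genes there that are not Schlafen genes, 18 were tested, and 3 were lower, 0 higher and 15 not called by edgeR (16.7% called, against 53.0% of all genes tested), with a median log2 fold change of -0.01. At an unadjusted p under 0.05 there were 2 higher and 4 lower, and DESeq2 and limma each called 1 higher. On the Slfn5 side the nearest tested gene was Nle1, a gene of ribosome assembly, which had the largest positive value (0.66, adjusted p = 0.0541 by edgeR) and was the gene called higher by DESeq2. In the fit with mouse as a block Nle1 was called (0.72, adjusted p = 0.0177 by edgeR), and without vehicle replicate 2 its value was 1.04. On the Slfn14 side the nearest was AI450353, a non-coding transcript, at -0.16 (adjusted p = 0.697 by edgeR). The genes that fell were Heatr9 (-6.59), Ccl5 (-5.22) and Ccl4 (-1.59), all on the Slfn14 side, of which Ccl5 and Ccl4 were named after their values were seen. Ccl5 and Ccl4 encode chemokines of effector T cells, and the call of Ccl4 was lost without AOA replicate 3 (adjusted p = 0.0538 by edgeR), while its log2 fold change was -0.88 without vehicle replicate 2.

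**Figure D4:**
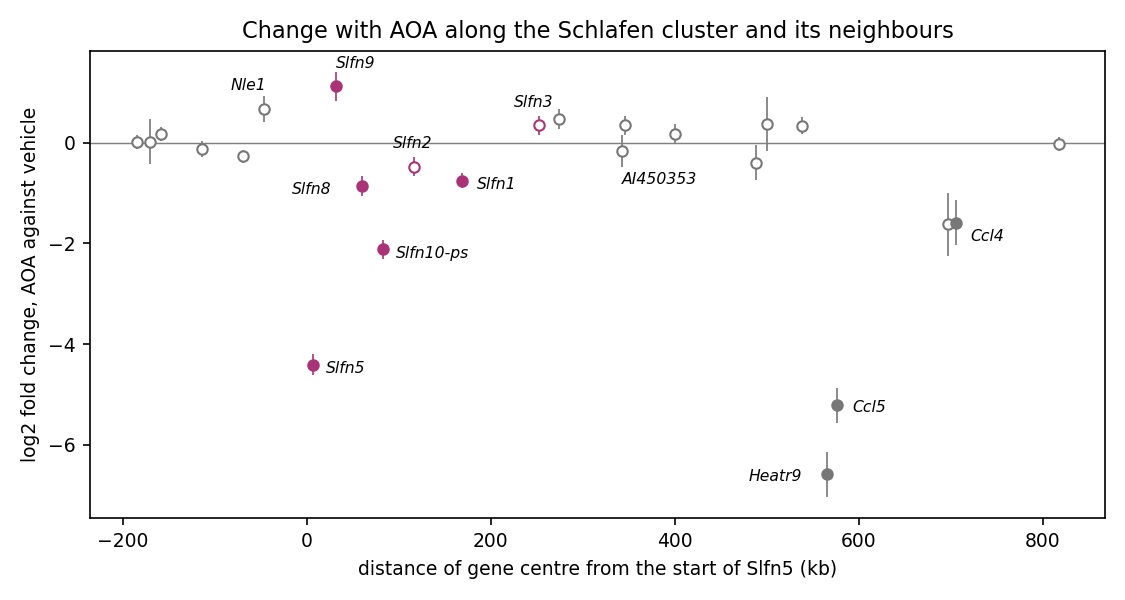
Log2 fold change with AOA (points, with standard error) against the distance of each tested gene's centre from the start of Slfn5 in kb, with Schlafen genes in purple, other genes in grey, and open symbols where a gene was not called. Between Nle1 and Slfn14 the Schlafen genes range from -4.41 to 1.11, while the other genes up to Taf15 lie between -0.40 and 0.66.

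The interferon pathway was followed because it induces Schlafen genes. Of 15 genes of interferon receptors and signalling, 9 were lower and 0 higher with AOA (edgeR), which is 60.0% called against 53.0% of all genes tested, with a median log2 fold change of -0.90. At an unadjusted p under 0.05, 10 were lower and 0 higher, and DESeq2 also called 0 higher. Ifngr1, which encodes the ligand-binding chain of the interferon gamma receptor, fell from 1817 ± 307 to 553 ± 58.2 CPM (SD, n = 3), a log2 fold change of -1.72 (adjusted p = 1.20e-04 by edgeR). The kinase gene Jak1 and the transcription factor gene Irf7 had log2 fold changes of -1.51 and -1.48 (adjusted p = 3.24e-04 and 6.05e-04 by edgeR).

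Genes of factors that bind ISRE sites were followed one by one. Stat2 fell by 0.90 and Irf1 fell by 1.06 on the log2 scale (adjusted p = 5.29e-04 and 0.00276 by edgeR). Irf9, which encodes a DNA-binding factor of the type I interferon response, was at -0.34 and not called (adjusted p = 0.0816 by edgeR).

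Among 25 tested interferon-induced genes of 26 listed, 9 were lower and 0 higher (edgeR), which is 36.0% called against 53.0% of all genes tested, with a median log2 fold change of -0.53. At an unadjusted p under 0.05, 10 were lower and 0 higher, and DESeq2 also called 0 higher. Ifit1, Rsad2 and Mx1, which encode antiviral proteins, had the largest falls, with log2 fold changes of -2.29, -2.18 and -2.07 (adjusted p = 0.00107, 0.00207 and 0.00132 by edgeR). Ifit1 and Rsad2 were low in both groups, with vehicle means of 5.08 and 4.06 CPM and AOA means of 1.03 and 0.897 CPM. Mx1 went from a mean of 31.2 CPM with vehicle to 7.43 CPM with AOA. None of the list fell as far as Slfn5, and Slfn9 rose with a larger log2 fold change than any value in the list, the highest of which was 0.35 (Isg20, chosen after its value was seen).

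Lymphocyte quiescence factors, with which Slfn2 is grouped by function, had 9 of 15 genes lower and 1 higher (66.7% called, against 53.0% of all genes tested), with a median log2 fold change of -0.46. Bach2, a repressor of effector genes, fell by 1.66 on the log2 scale (adjusted p = 6.37e-04 by edgeR), and Btg1, an antiproliferative factor, fell by 1.33 (adjusted p = 1.15e-04 by edgeR). Cdkn1b, which encodes the cell cycle inhibitor p27, fell by 1.32 (adjusted p = 0.00130 by edgeR). Klf4, which restrains T cell proliferation, had a vehicle mean of 0.269 ± 0.142 CPM and an AOA mean of 4.53 ± 0.761 CPM (SD, n = 3 each), and it rose by 4.08 on the log2 scale (adjusted p = 1.05e-04 by edgeR).

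Genes that cut or protect tRNA, which Slfn2 binds, had 4 of 8 tested genes lower and 2 higher (75% called, against 53.0% of all genes tested), out of 10 listed. Ang, which encodes angiogenin, was near the limit of detection, at 1.75, 0.380 and 1.95 CPM in the vehicle libraries of mice 1, 2 and 3, against 0.460, 0.423 and 0.656 CPM in their AOA libraries. Its groups overlapped through vehicle replicate 2, and its log2 fold change of -1.40 was not called (adjusted p = 0.0658 by edgeR). It passed the threshold in the fit with mouse as a block (-1.29, adjusted p = 0.0411 by edgeR) and without vehicle replicate 2 (-1.81, adjusted p = 0.00238 by edgeR). Rnh1, which encodes the inhibitor that binds angiogenin, fell by 0.53 on the log2 scale (adjusted p = 0.0192 by edgeR), a call that was lost without vehicle replicate 2 (-0.33, adjusted p = 0.0539) or AOA replicate 3 (adjusted p = 0.0783).

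The ribonuclease gene Samd9l and the tRNA-sensing kinase gene Eif2ak4 were lower, with log2 fold changes of -0.88 and -0.84 (adjusted p = 0.0123 and 0.00280 by edgeR). Both methyltransferase genes whose products protect tRNA from cleavage were higher. Nsun2 rose from 105 ± 36.1 to 295 ± 8.46 CPM (SD, n = 3), a log2 fold change of 1.49 (adjusted p = 5.72e-04 by edgeR). Trdmt1 rose from 2.79 ± 0.592 to 5.17 ± 0.670 CPM (SD, n = 3), a log2 fold change of 0.90 (adjusted p = 0.0190 by edgeR), and its call was lost without vehicle replicate 3 (adjusted p = 0.0729), AOA replicate 1 (0.0583) or AOA replicate 3 (0.0522).

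**Figure D5:**
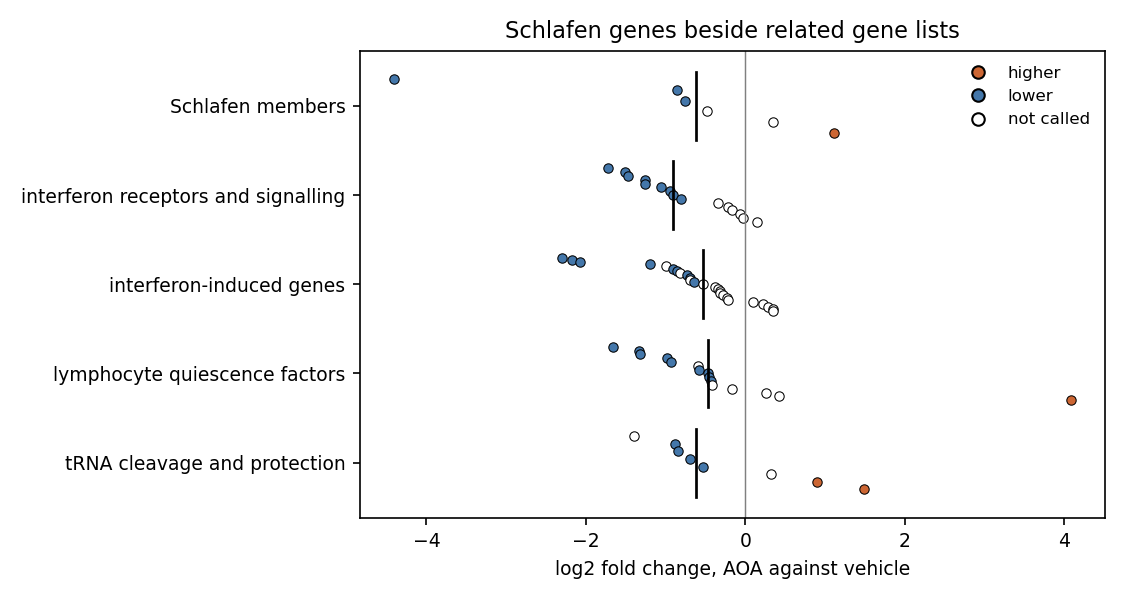
Log2 fold change with AOA of each tested gene of 5 lists, coloured by whether it was called higher, lower or not called, with the list's median as a black line. The medians lie between -0.90 and -0.46, and Slfn5 at -4.41 lies below every gene of the other 4 lists.

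The genes whose pattern was most like that of a member were found by the distance between log2 CPM values centred on the gene's mean over the 6 libraries, in log2 units. For Slfn5 these were Il7r at 0.60, Spred3 at 0.81 and Sult2b1 at 0.93. For Slfn9 they were Med16 at 0.17, Lrrc8b at 0.38 and Plxna1 at 0.40, and for Slfn8 they were Zfp704 at 0.16, Slc38a6 at 0.20 and Stk11ip at 0.30. Slfn2 was nearest to Oas1c (0.10), Cmc1 (0.15) and Wbp1 (0.15), Slfn1 to Kxd1 (0.13), Gm19557 (0.15) and 1600014C10Rik (0.15), and Slfn3 to Ttc13 (0.11), Fam210a (0.11) and Angel2 (0.11). Within the family Slfn1 and Slfn2 were the closest pair, at 0.45, and Slfn5 and Slfn9 the most distant, at 6.74. With 6 libraries in 2 groups such likeness is mostly that of the change between groups, and it is a description only.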

How the data were processed

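RNA of vehicle- and AOA-treated CD8+ T cells was sequenced by the authors from stranded mRNA libraries as paired-end reads. Alignment by the authors used STAR with its defaults, and the deposited counts are raw numbers of uniquely mapping reads for each gene, listed with Entrez number, symbol and length. The submitters' processing notes also name featureCounts and mm10. No source used here gives the annotation, strand setting or gene filter.

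The count test was edgeR 4.0.16 under R 4.3.3 (filterByExpr with a minimum count of 10, TMM, robust quasi-likelihood test, Benjamini-Hochberg adjustment, threshold 0.05), with the standard error taken as the log2 fold change over the root of the test statistic. Log2 CPM has a prior count of 2. DESeq2 1.42.0 and limma 3.58.1 (voom) were alternatives, beside other scalings and filters, the mouse block, each library left out and a test against a log2 fold change of 1.

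A donor label gives each library its mouse, numbered alike in both groups, and deviations from group means correlated within each mouse across genes (r of 0.0868, 0.189 and 0.194). Replicates differed by more than sampling noise (chi-square per gene of 10.0 to 71.1), and 0 columns of per-sample values lacked a sample. Precision is limited by 3 cultures per group, and separate cultures of 3 mice are the replicates.

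Members and lists were chosen with earlier results of these data known. Named genes are the members, Slfn10-ps, up to 3 called genes per direction of each list with the largest change, Stat2, Irf9, Irf1, Ang, Rnh1, Trdmt1 and Nsun2, the nearest and most changed neighbours, and the 3 genes most like each member. Some genes that this rule names are not reported here. Promoter windows are RefSeq (GRCm38.p6). Amino acid sequences were not used here.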

Additional observations from a re-analysis of the deposited data

How the results depend on the processing

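The log2 fold changes of the members, Slfn10-ps and the named pathway list and neighbour genes kept their direction under each alternative in which the gene was tested. Isg20 was not followed under the alternatives and is not part of this statement. The filter of at least 10 CPM removed Ang, Ccl4, Ifit1, Klf4, Rsad2, Trdmt1 and AI450353. Ratios, shares, the order of levels and likeness were not recomputed. The calls of Slfn5 and Slfn10-ps held under all 14 alternatives. Testing against a log2 fold change of 1 in place of 0 left 1482 genes called, 676 higher and 806 lower, with 0 members higher and 1 lower (Slfn5), and Slfn1 (-0.75), Slfn8 (-0.86) and Slfn9 (1.11) were then not called. Slfn2 was called with DESeq2 (-0.47), with a filter of at least 10 CPM in 3 libraries (-0.51) and with the mouse as a replicate block (-0.47), which changed no other call among the members. The block raised the calls over all genes from 6233 to 6292, with 6007 in both, and 1 neighbour of the cluster was higher. One neighbour was also higher with DESeq2, limma and no low-count filter. The filter of at least 10 CPM left 0 quiescence factors and 1 tRNA gene higher, because it removed low genes. With each library left out, the log2 fold change ranged from -0.61 to -0.33 for Slfn2 and from 0.25 to 0.56 for Slfn3, the number of members higher from 1 to 2, of tRNA genes higher from 1 to 3 and of neighbours higher from 0 to 3. A library left out leaves its group with 2 samples. The cause of these differences was not tested. Depth limits the AOA values of Slfn5, which rest on 25 to 32 counts, and Slfn4 and Slfn14 were not analysed here.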
